A study of Mus musculus with 8 samples.

Results

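The splicing regulators described here are the 55 protein-coding mouse genes whose symbols begin with Srsf, Hnrnp, Rbfox, Mbnl, Celf, Ptbp, Esrp, Nova, Khdrbs or Tra2, out of 54116 genes (21932 of them protein-coding) in a transcript table of mesenchymal stromal cells (MSCs) of 2 organs. The rule goes by name and uses no measured value, but it was chosen with earlier results of these data known. All 55 were in the table with 514 of their 534 annotated transcripts. The missing ones belong to 4 members: Srsf7 (1 of 8 annotated transcripts present), Hnrnpul2 (1 of 2), Srsf3 (5 of 10) and Hnrnpm (8 of 15). The pMSCs came from the pancreas and the iwatMSCs from inguinal white adipose tissue (iWAT) of the same male C57BL/6J mice, 8 weeks old and kept on a standard diet. Both were sorted as CD31- CD45- SCA1+ cells, which removes endothelial and blood cells, and grown for 4 days before RNA was taken. There were 4 libraries of each, from cells of pooled mice. Neither group was treated or genetically altered. No source says whether the 4 libraries of an organ were separate pools or cultures, so p-values measure the spread between these libraries, which may be technical.

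Splicing regulators are RNA-binding proteins that decide which exons of a primary transcript are joined. SR proteins (Srsf) and the SR-like Tra2 proteins bind exonic enhancers and mostly favour exon inclusion, hnRNP proteins (Hnrnp) and polypyrimidine tract-binding proteins (Ptbp) often repress it, and the Rbfox, Mbnl, Celf, Nova, Esrp and Khdrbs proteins act in ways that depend on tissue and on where they bind. Many of these genes regulate themselves: an ultraconserved poison exon with a stop codon, or the skipping of a coding exon, turns part of their RNA into a target of nonsense-mediated decay (NMD), the pathway that destroys messages with a premature stop. Retained introns in their RNA often keep it in the nucleus. In stromal cells these families are known mainly as broadly expressed housekeeping regulators, with Mbnl, Celf, Rbfox2 and Ptbp proteins also acting in the differentiation of muscle, heart and connective tissue.

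Sequences are shown for the exons by which these genes control their own output or make alternative proteins, read from GENCODE M21 transcripts on GRCm38. The exons were picked after their values had been seen. The first set holds the poison exons of Srsf3 and Srsf6 and of both Tra2 genes, each printed from its first base to the premature stop codon, which is in capitals. These stretches are chr17:29039454-29039487 (plus strand) for Srsf3, chr2:162932815-162932966 (plus) for Srsf6, chr6:49252965-49253108 (minus) for Tra2a and chr16:22259181-22259261 (minus) for Tra2b.
Srsf3 poison exon: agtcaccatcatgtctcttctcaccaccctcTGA
Srsf6 poison exon: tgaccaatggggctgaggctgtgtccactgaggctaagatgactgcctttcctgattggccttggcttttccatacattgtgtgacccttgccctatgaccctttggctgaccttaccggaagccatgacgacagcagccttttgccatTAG
Tra2a poison exon: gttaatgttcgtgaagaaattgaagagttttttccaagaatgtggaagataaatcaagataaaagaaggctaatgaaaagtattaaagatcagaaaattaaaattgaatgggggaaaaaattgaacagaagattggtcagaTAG
Tra2b poison exon: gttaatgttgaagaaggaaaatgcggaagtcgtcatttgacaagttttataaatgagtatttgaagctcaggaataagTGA
The stop codon began at base 32 of the 456-base Srsf3 exon, at base 150 of the 268-base Srsf6 exon, at base 142 of the 306-base Tra2a exon and at base 79 of the 276-base Tra2b exon.

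The second set pairs exons of sister genes, with the bases that differ between sisters in capitals. The 54-base exons of Mbnl1 (chr3:60614683-60614736, plus) and Mbnl2 (chr14:120395712-120395765, plus) keep the reading frame and are known to carry part of the nuclear localisation signal. They were identical at 46 of 54 bases. The 34-base exons of Ptbp1 (chr10:79862014-79862047, plus) and Ptbp2 (chr3:119724612-119724645, minus) shift the frame when they are skipped, which gives an NMD transcript. They were identical at 26 of 34 bases.
Mbnl1 54-base exon: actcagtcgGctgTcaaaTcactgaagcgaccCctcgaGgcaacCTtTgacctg
Mbnl2 54-base exon: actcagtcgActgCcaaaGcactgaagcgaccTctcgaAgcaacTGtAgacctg
Ptbp1 34-base exon: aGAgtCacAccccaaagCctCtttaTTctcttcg
Ptbp2 34-base exon: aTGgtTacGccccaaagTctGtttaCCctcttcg

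The last set holds coding cassettes of Rbfox2 and Hnrnpm, the members whose alternative forms are set out at the end. The 40-base (chr15:77094451-77094490, minus) and 43-base (chr15:77091812-77091854, minus) exons of Rbfox2 are known as the brain-type and muscle-type exons of its C-terminal part. The Hnrnpm segment (chr17:33666530-33666646, minus) is 117 coding bases that transcript Hnrnpm-206 keeps and Hnrnpm-201 splices out without changing the frame.
Rbfox2 40-base exon: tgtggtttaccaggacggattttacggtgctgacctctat
Rbfox2 43-base exon: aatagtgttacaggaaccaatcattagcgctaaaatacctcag
Hnrnpm 117-base segment: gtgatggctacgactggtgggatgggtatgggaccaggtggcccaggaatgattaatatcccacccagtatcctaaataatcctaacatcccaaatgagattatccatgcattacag

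The values are FPKM (fragments per kilobase of transcript, scaled to the fragments mapped in the library), so they are per length and levels of different genes can be set side by side. A gene level is the sum over its transcripts. Depth in reads is unknown, because only FPKM were used, and the FPKM of a library summed to between 437894 and 458616. The sorted cells carried the stromal markers: the 10 listed ones summed to 1883 to 2067 FPKM in pMSCs and 1957 to 2593 FPKM in iwatMSCs. Markers of other cell types moved with the organ. The 14 acinar markers summed to 52.7 to 269.9 FPKM in pMSCs, highest in pMSC 1, against 1.89 to 3.85 FPKM in iwatMSCs. The 10 epithelial markers summed to 18.6 to 45.3 FPKM in pMSCs and 6.78 to 16.1 FPKM in iwatMSCs, with Krt8, Krt18 and Cldn4 called higher and Krt19 called lower in pMSCs. The 10 muscle markers summed to 13.8 to 21.8 FPKM in pMSCs and 4.15 to 7.08 FPKM in iwatMSCs. Des, the desmin gene, made up most of this in pMSCs and was called higher, while Ckm reached at most 0.0281 FPKM and Myh4 was listed at 0. The 9 neuronal markers summed to 2.86 to 4.83 FPKM in pMSCs, against 23.0 to 58.4 FPKM in iwatMSCs, from Gap43, Nefl and Nefm, with Syt1 and Stmn2 near 0. The glial markers summed to at most 2.37 FPKM, with Sox10 and Foxd3 listed at 0, those of endothelium to at most 9.31 FPKM with Emcn at 0, those of blood cells to at most 10.99 FPKM with C1qa, C1qb, Adgre1 and Cd52 at 0, and those of adipocytes to at most 0.950 FPKM. The 20 proliferation genes summed to 1042 to 1267 FPKM in pMSCs and 1106 to 1239 FPKM in iwatMSCs, with 5 called higher and 1 lower in pMSCs. In bulk RNA, fewer cells of a type and less RNA per cell cannot be told apart.

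The first question was whether the splicing regulators differ in level between the organs. Most did not pass the test. Of the 45 members with a mean of at least 1 FPKM, 2 were higher in pMSCs (Celf2 and Ptbp3) and 4 were lower (Nova1, Mbnl2, Celf4 and Rbfox2) at an adjusted p under 0.05, by limma on log2(FPKM + 1) with Benjamini-Hochberg adjustment over all 13345 genes tested. That is 13.3% of the members, beside 19.4% of all genes tested (9.02% higher and 10.4% lower). The count was 3 without pMSC 1, 2 or 3 or without iwatMSC 3 or 4, and 2 with an unequal-variance test. The 4 libraries of pMSCs did not overlap those of iwatMSCs for 9 of the 45 members, beside 24.4% of all genes. The median absolute difference over the members was 0.12 on the log2 scale, beside 0.17 over all genes tested. No member differed by 1 or more on that scale, whereas 677 of the 13345 genes (5.07%) did. The members were also among the abundant genes, with a median of 46.2 FPKM against 9.64 FPKM for all genes tested. For 34 of the 45 the 95% confidence interval of the difference lay within 0.5 on either side of 0.

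**Figure D1:**
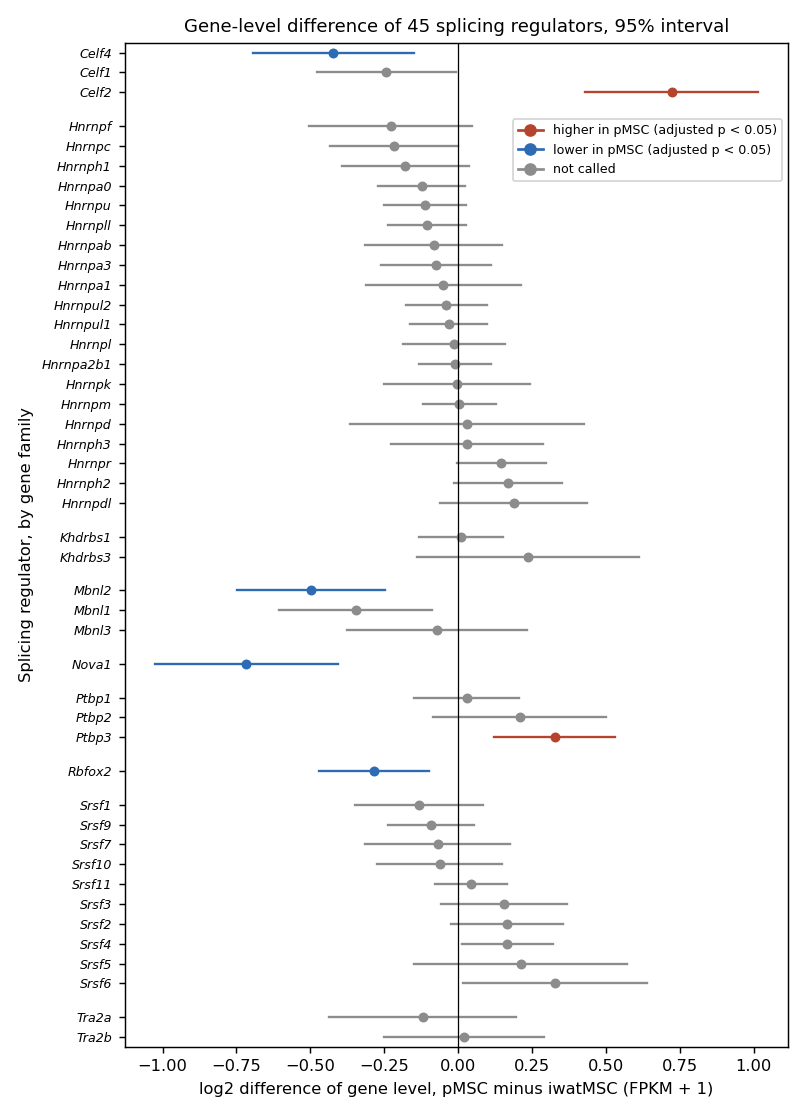
Log2 difference of gene level (FPKM + 1), pMSC minus iwatMSC, for the 45 tested splicing regulators grouped by family, with points for the estimate and lines for its 95% confidence interval (4 libraries per organ). The 2 called higher (Celf2, Ptbp3) and the 4 called lower (Celf4, Mbnl2, Nova1, Rbfox2) stand out by colour, and 37 of the 45 estimates lie within 0.25 of 0.

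Celf2, an RNA-binding protein that regulates splicing and message stability in heart, brain and lymphocytes, had the largest difference of the 45 tested members. It was at 30.8, 23.2, 25.6 and 22.1 FPKM in pMSCs, against 12.3, 17.9, 14.7 and 15.2 FPKM in iwatMSCs. Every pMSC library lay above every iwatMSC library, and the difference was 0.72 on the log2 scale (SE 0.13, adjusted p = 0.0045). pMSC 1 was highest both for Celf2 and for the acinar markers, and without it the difference was 0.63 (adjusted p = 0.012). The gene (chr2:6539694-7509563, GRCm38) had 28 transcripts in the table, and which of them carried the level differed between libraries: Celf2-202 had 0.062, 12.5, 13.9 and 7.48 FPKM in pMSCs and 5.29, 9.88, 8.99 and 8.33 FPKM in iwatMSCs, while Celf2-206 had 9.58 FPKM in pMSC 1 and was listed at 0 in the other 7 libraries. The call was thus one of the gene sum, and no single Celf2 transcript was called.

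Its relatives did not rise with it. Celf1, the broadly expressed member of the family, had 12.2, 15.8, 14.6 and 16.7 FPKM in pMSCs and 15.5, 18.6, 18.5 and 18.1 FPKM in iwatMSCs, a difference of -0.24 that was not called (adjusted p = 0.14). Celf4, a neuronal member, was low in both organs, at 1.09, 0.995, 1.15 and 0.779 FPKM in pMSCs and 1.73, 1.22, 1.87 and 1.94 FPKM in iwatMSCs. The groups did not overlap, and Celf4 was called lower in pMSCs (-0.42, SE 0.12, adjusted p = 0.038), but the call depended on every library except iwatMSC 2 (adjusted p 0.052 to 0.10 without 1 of the other 7). The neuronal marker sum was also lower in pMSCs, and was highest in iwatMSC 2 (58.4 FPKM), the iwatMSC library with the lowest Celf4. The part of neuronal RNA in the Celf4 value was not tested.

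Muscleblind-like proteins bind the same kind of pre-mRNA as Celf proteins and often oppose them, with Mbnl activity best known for driving adult-type splicing in muscle. Mbnl2 was at 53.3, 53.3, 70.4 and 61.0 FPKM in pMSCs, against 86.9, 71.2, 87.8 and 91.1 FPKM in iwatMSCs. All pMSC libraries lay below all iwatMSC libraries, though pMSC 3 came close to iwatMSC 2, and Mbnl2 was called lower (-0.50, SE 0.11, adjusted p = 0.013). The call held without any 1 library (adjusted p at most 0.043) and was lost with the unequal-variance test (adjusted p = 0.059). A gene on the other strand, Gm26679, overlaps Mbnl2 and passed 1 FPKM. The strand setting of the quantification is not given in the sources used here, so some reads of Gm26679 could count for Mbnl2. Of the 55 members, 14 overlap such a gene on the other strand, and the same limit holds for them. Mbnl1 was at 25.9, 21.6, 25.7 and 27.1 FPKM in pMSCs and 27.7, 28.6, 35.5 and 37.5 FPKM in iwatMSCs. Its groups did not overlap either, but it just missed the threshold (-0.35, adjusted p = 0.066), and passed it only when iwatMSC 1 was left out (adjusted p = 0.034). Mbnl3 was low in both and averaged 1.58 ± 0.412 FPKM in pMSCs and 1.69 ± 0.269 FPKM in iwatMSCs (SD, n = 4 each), and was not called. Over the 3 genes the summed level was 86.2 ± 9.05 FPKM in pMSCs and 118.2 ± 12.8 FPKM in iwatMSCs.

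Nova1, a KH-domain protein known from mouse as a splicing regulator of neurons, had the largest fall of the 45 tested members. It was at 3.69, 3.61, 4.27 and 2.74 FPKM in pMSCs, against 7.60, 5.18, 6.13 and 7.21 FPKM in iwatMSCs. No pMSC library reached the lowest iwatMSC library, and the difference was -0.72 (SE 0.14, adjusted p = 0.0062), and called without any 1 library (adjusted p at most 0.022). Unlike for Celf2, 1 transcript was called as well. Nova1-201 was at 2.63, 2.29, 3.18 and 2.72 FPKM in pMSCs and 5.97, 4.56, 5.05 and 5.04 FPKM in iwatMSCs (-0.73, SE 0.12, adjusted p = 0.011 over 24686 transcripts). It held 77.1% of the gene level in pMSCs and 79.7% in iwatMSCs on average. With shares so alike, the difference was not shown to be confined to this form. The neuronal marker sum was lower in pMSCs as well and was highest in iwatMSC 2 (58.4 FPKM), the iwatMSC library with the lowest Nova1. The part of neuronal RNA in the Nova1 value was not tested.

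Rbfox proteins bind the motif GCAUG in introns beside alternative exons and steer splicing in muscle, brain and mesenchymal cells. Rbfox2, the widely expressed member, was at 20.03, 19.2, 21.5 and 22.9 FPKM in pMSCs, against 24.6, 23.4, 26.9 and 28.0 FPKM in iwatMSCs. The groups did not overlap, by a narrow margin, and Rbfox2 was called lower (-0.28, SE 0.08, adjusted p = 0.040). This call was among the less stable ones: it was lost with TPM, median-of-ratios or quantile scaling (adjusted p 0.059 to 0.075) and without pMSC 1, 2 or 3 or iwatMSC 3 or 4 (0.067 to 0.11), with the direction kept throughout. Rbfox1, the muscle and neuron member, averaged under 1 FPKM and so was not in the main test. It was at 1.45, 0.725, 0.960 and 0.998 FPKM in pMSCs, against 0.0173, 0, 0.0401 and 0.0624 FPKM in iwatMSCs. It was thus detected at low level in all pMSCs and nearly absent from iwatMSCs, and when the level filter was dropped it was called higher (0.97, adjusted p = 0.00097). Muscle markers, mainly Des, were higher in pMSCs too, and their part in the Rbfox1 value was not tested. Rbfox3, a marker of mature neurons, was listed at 0 in all 8 libraries.

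Ptbp proteins repress many neuronal and muscle exons. Ptbp1, the main form in non-neuronal cells, was the most abundant of the family at 168.6 ± 13.7 FPKM in pMSCs, against 165.1 ± 11.6 FPKM in iwatMSCs (SD, n = 4 each), with a difference of 0.03 (95% interval -0.15 to 0.21, adjusted p = 0.84). Ptbp3, best known from blood cells, was at 21.03, 24.9, 23.4 and 19.8 FPKM in pMSCs, against 16.7, 18.7, 18.8 and 16.0 FPKM in iwatMSCs. Every pMSC library lay above every iwatMSC library, and Ptbp3 was called higher (0.33, SE 0.09, adjusted p = 0.034), but the call was kept only without pMSC 4 or iwatMSC 2 and lost without any other 1 library (adjusted p 0.052 to 0.091). No Ptbp3 transcript was called on its own. The gene 1700018M17Rik overlaps Ptbp3 on the other strand and passed 1 FPKM, so some of its reads could count for Ptbp3. Ptbp2, the neuronal form, had 11.9 ± 2.09 FPKM in pMSCs and 10.1 ± 1.12 FPKM in iwatMSCs and was not called (adjusted p = 0.30).

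**Figure D2:**
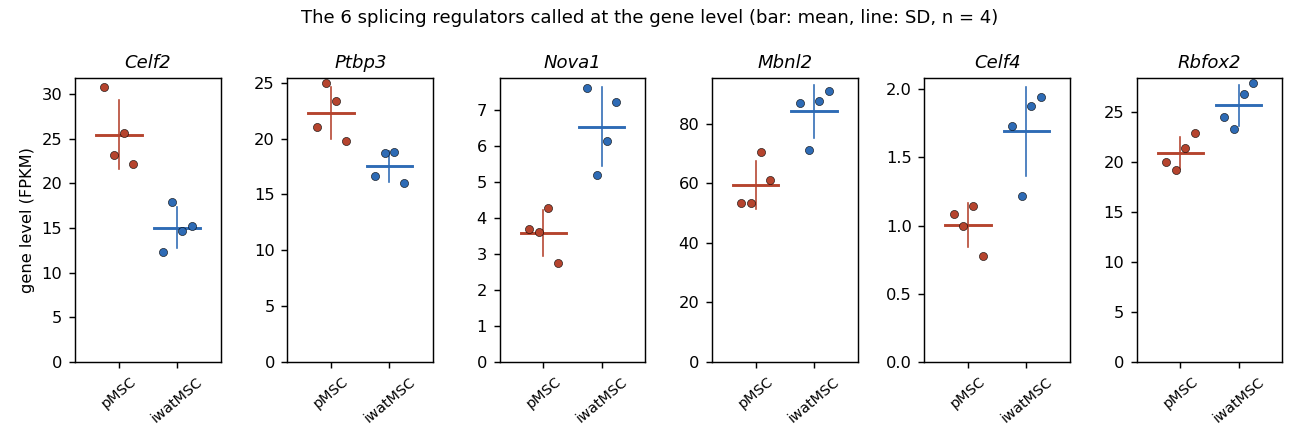
Gene level in FPKM of the 6 called splicing regulators, with a point for each library, a bar for the mean and a line for the SD (n = 4 per organ, pMSC left, iwatMSC right, each axis from 0). In all 6 panels the groups do not overlap, with pMSCs above for Celf2 and Ptbp3 and below for Nova1, Mbnl2, Celf4 and Rbfox2.

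None of the general families held a called member. Of 10 tested SR genes none was called and none had groups that did not overlap. Srsf2, the most abundant, had 163.0 ± 10.4 FPKM in pMSCs and 145.7 ± 14.6 FPKM in iwatMSCs (0.16, 95% interval -0.02 to 0.35, adjusted p = 0.21). Srsf6 had the largest SR difference, 97.3 ± 17.6 FPKM in pMSCs and 77.0 ± 10.7 FPKM in iwatMSCs (0.33, adjusted p = 0.14). Tra2b averaged 39.0 ± 3.87 FPKM in pMSCs and 38.7 ± 6.89 FPKM in iwatMSCs, and Tra2a averaged 27.6 ± 4.16 FPKM in pMSCs and 30.1 ± 4.67 FPKM in iwatMSCs.

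All 20 hnRNP genes passed the level filter and none was called, with differences between -0.23 and 0.19. Hnrnpab, the most abundant regulator of all, had 411, 399, 333 and 340 FPKM in pMSCs and 368, 460, 374 and 369 FPKM in iwatMSCs, and iwatMSC 2 stood well above the other 3 libraries of its group. Hnrnpa2b1, which binds RNA in the nucleus and also sorts small RNAs into vesicles, averaged 270.3 ± 2.67 FPKM in pMSCs and 272.4 ± 11.4 FPKM in iwatMSCs (-0.01, 95% interval -0.13 to 0.11). Hnrnpu and Hnrnpll had groups that did not overlap, with pMSCs below, but small differences (-0.11 each) that were not called. Khdrbs1 (Sam68), a signal-responsive splicing factor, averaged 61.0 ± 2.17 FPKM in pMSCs and 60.6 ± 3.68 FPKM in iwatMSCs, and Khdrbs3 averaged 11.3 ± 2.67 FPKM in pMSCs and 9.44 ± 1.82 FPKM in iwatMSCs. Values of 10 members are uncertain because of pseudogenes in the table at least 95% identical to them over at least 500 bases, among which reads can be divided. For Hnrnpf these 5 pseudogenes summed to as much as 110.9% of the gene itself, and for Hnrnpa3 (24 pseudogenes) and Tra2b (4) to as much as 34.4% and 32.0%.

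Rbfox1 and Rbfox3 were 2 of 10 members under 1 FPKM. Celf5, known from brain, was at 0.236, 0.0688, 0.128 and 0.211 FPKM in pMSCs and 1.39, 0.201, 1.20 and 1.35 FPKM in iwatMSCs, so that iwatMSC 2 lay inside the pMSC range. The Esrp proteins set the epithelial form of many transcripts. Esrp1 was at 0.0162 to 0.195 FPKM in pMSCs, against 0 to 0.0329 FPKM in iwatMSCs. Esrp2 was at 0.671 to 1.05 FPKM in pMSCs, against 0.297 to 0.576 FPKM in iwatMSCs. Without the level filter Esrp2 was just over the threshold (0.37, adjusted p = 0.054), and Nfatc3 on the opposite strand overlaps it. The epithelial marker sum was higher in pMSCs too, and its part in these values was not tested. Celf3, Celf6, Khdrbs2, Nova2 and Srsf12 averaged at most 0.169 FPKM in either organ.

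The second question was whether individual transcripts differ. Of 217 member transcripts with a mean of at least 1 FPKM, 1 was higher and 2 were lower in pMSCs (1.38%, beside 5.54% of the 24686 transcripts tested, 2.79% of them higher and 2.75% lower), and the groups did not overlap for 13 of them (5.99%, beside 14.3%). Besides Nova1-201, these were Mbnl2-208 and Hnrnpm-201, all 3 coding. None of the 79 tested NMD or retained-intron transcripts of members was called, and no member had transcripts called in opposite directions. Mbnl2-208, a coding form with the 54-base exon, was at 19.3, 18.4, 20.2 and 14.4 FPKM in pMSCs, against 34.2, 27.9, 32.5 and 31.8 FPKM in iwatMSCs (-0.78, SE 0.12, adjusted p = 0.0081). It was thus well separated, whereas Mbnl2-203, a coding form without that exon, had 9.62, 8.55, 12.2 and 6.58 FPKM in pMSCs and 11.3, 6.39, 9.81 and 10.03 FPKM in iwatMSCs (-0.02, 95% interval -0.52 to 0.47). The most abundant entry of the gene in both organs was Mbnl2-205, annotated as a processed transcript, with 20.1 FPKM in pMSCs and 35.9 FPKM in iwatMSCs on average (-0.89, adjusted p = 0.15).

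Hnrnpm, a repressor and activator of many exons that is known in epithelial-mesenchymal transition, had equal gene levels, 72.5 ± 1.26 FPKM in pMSCs and 72.4 ± 2.98 FPKM in iwatMSCs (0.00, 95% interval -0.12 to 0.13). Its 2 main coding forms differed in balance. Hnrnpm-201, without the 117-base segment, was at 39.6, 39.8, 40.1 and 41.2 FPKM in pMSCs, against 33.4, 33.9, 34.04 and 34.5 FPKM in iwatMSCs (0.24, SE 0.05, adjusted p = 0.033). Hnrnpm-206, with it, was at 26.0, 28.5, 29.7 and 27.3 FPKM in pMSCs, against 35.6, 38.2, 33.3 and 29.7 FPKM in iwatMSCs (-0.28, adjusted p = 0.13). The short form therefore made up 60.4%, 58.3%, 57.5% and 60.1% of the pair in pMSCs, against 48.5%, 47.0%, 50.6% and 53.7% in iwatMSCs, with no overlap. This share was computed after the transcript values had been seen and has no test of its own. The call for Hnrnpm-201 did not survive the removal of any 1 library (adjusted p 0.054 to 0.097), with the difference between 0.22 and 0.24 throughout. Of the 15 annotated Hnrnpm transcripts 8 were analysed here.

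**Figure D3:**
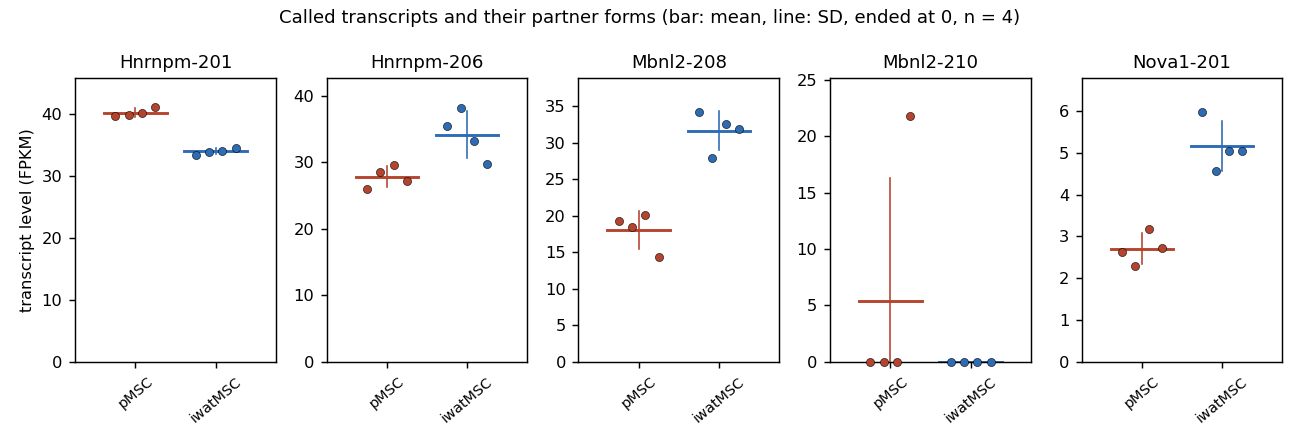
Transcript level in FPKM of the 3 called transcripts (Hnrnpm-201, Mbnl2-208, Nova1-201) and of partner forms of the same genes (Hnrnpm-206, Mbnl2-210), with points for libraries, bars for means and lines for the SD, which end at 0 (n = 4 per organ, pMSC left, iwatMSC right). Hnrnpm-201 is above and Mbnl2-208 and Nova1-201 are below in every pMSC library, and Mbnl2-210 appears in pMSC 4 alone, at 21.8 FPKM.

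For 39 of the 45 tested members the same transcript led in both organs. This was fixed in advance for Hnrnpa0, Hnrnpul2 and Srsf7, which had 1 transcript each in the table. The 6 with different leading forms were Celf4, Hnrnph1, Hnrnpm, Hnrnpul1, Ptbp2 and Srsf6. In 38 members the leading form in pMSCs was protein-coding. In the other 7 it was an NMD form (Hnrnpd, Hnrnpll, Srsf6), a retained-intron form (Ptbp2, Srsf5) or a processed transcript (Hnrnph1, Mbnl2).

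The third question was how much of the members' RNA is in forms that make no full protein. Over all 55, NMD transcripts held 7.62 ± 0.609% of the summed FPKM in pMSCs and 6.39 ± 1.28% in iwatMSCs (SD, n = 4 each), beside 1.93 ± 0.0490% in pMSCs and 1.95 ± 0.118% in iwatMSCs over all protein-coding genes. Retained-intron transcripts held 12.3 ± 0.610% in pMSCs and 11.7 ± 0.620% in iwatMSCs, beside 6.43 ± 0.109% in pMSCs and 6.34 ± 0.103% in iwatMSCs over all protein-coding genes. In sum, both classes thus took a larger part of the FPKM of the splicing regulators than of protein-coding genes at large, in every library of both organs. The groups overlapped. Genes without an annotated form of a class count in these sums with none. How many such forms are annotated per gene was not taken into account, which limits the comparison with all protein-coding genes. Processed transcripts, which have no annotated reading frame, held 5.06%, 6.16%, 5.12% and 5.67% of the members' FPKM in pMSCs, against 6.50%, 6.24%, 6.26% and 6.45% in iwatMSCs. Their share was lower in every pMSC library than in any iwatMSC library, and over all protein-coding genes it was 1.79% to 1.97% in pMSCs and 1.82% to 1.93% in iwatMSCs, with overlap. The members' total was 3363 to 3540 FPKM in pMSCs and 3365 to 3852 FPKM in iwatMSCs.

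For no member was a difference in the share of its NMD transcripts called. Of 28 members with annotated NMD forms 23 were abundant enough to test (mean gene level of at least 1 FPKM and NMD level of at least 0.5 FPKM). By limma on the log2 ratio of NMD to other FPKM 0 were called, beside 5 of 1306 genes (0.383%, with 0.23% higher and 0.153% lower). Of the 23, 0 had an unadjusted p under 0.05, beside 74 of all 1306. The groups did not overlap for 1 of the 23, beside 3.68% of all genes tested: Hnrnpr had 3.60%, 4.80%, 5.14% and 4.00% in pMSCs, against 2.26%, 2.72%, 2.60% and 3.44% in iwatMSCs. The precision was low, with a median half-width of the 95% interval of 0.95 on the log2 scale. These intervals are not adjusted for the 1306 genes. A call needed a difference larger than the half-width of the member in question, so smaller differences could be missed. In 7 of the 23 the share moved by more than 20 percentage points among libraries of 1 organ.

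Hnrnpll, known for controlling CD45 splicing in lymphocytes, had the highest mean share, with 52.4%, 47.0%, 50.7% and 49.4% in pMSCs and 50.7%, 47.0%, 46.5% and 48.5% in iwatMSCs. Hnrnpd (AUF1), which binds AU-rich elements, had 46.3 ± 9.40% in pMSCs and 48.8 ± 12.5% in iwatMSCs. Hnrnpa1, a general antagonist of SR proteins, had 40.1 ± 2.78% in pMSCs and 35.3 ± 16.0% in iwatMSCs, where iwatMSC 2 was lowest at 14.0%. In both organs these 3 thus had a large part of their FPKM in forms annotated as NMD targets.

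Srsf6, an SR protein whose poison exon is shown above, had 72.2%, 23.8%, 39.8% and 71.2% in pMSCs, against 35.7%, 38.2%, 36.7% and 36.7% in iwatMSCs. The iwatMSC libraries were nearly equal and the pMSC libraries lay on both sides of them (log2 ratio difference 0.87, 95% interval -0.70 to 2.44, adjusted p = 0.88). Khdrbs3 ran from 0.00774% to 49.2% in pMSCs and from 0.592% to 99.8% in iwatMSCs, so these libraries give no usable level for it. Tra2a had 28.1 ± 7.13% in pMSCs and 26.3 ± 10.4% in iwatMSCs. Of the tested members 10 had under 5% in NMD forms, and the median over the 23 was 5.10%, beside 12.9% over the 1306 genes tested. These medians are not like for like, because abundant genes pass the minimum of 0.5 FPKM in NMD forms at a lower share. The largest amounts in the sum were those of Hnrnpa1 (96.1 FPKM in NMD forms on average) and Srsf6 (40.7 FPKM).

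Retained-intron shares were likewise not called. Of 38 members with such forms 24 were tested, 0 were called (beside 12 of 4179 genes, 0.287%, with 0.12% higher and 0.168% lower) and 2 had an unadjusted p under 0.05 (beside 377 of all 4179). The groups did not overlap for these 2, beside 4.62% of all genes tested. The median share over the 24 was 13.3%, beside 13.1% over the 4179 genes tested, so the larger part in the sum was not seen in these medians. The minimum of 0.5 FPKM lets abundant genes pass at a lower share, which limits this comparison. The largest amounts in retained-intron forms were those of Hnrnpk (103.1 FPKM on average), Hnrnpa2b1 (70.6 FPKM) and Hnrnpl (67.3 FPKM). Hnrnpl, which binds CA-rich RNA, had 49.4%, 46.9%, 48.0% and 50.1% in pMSCs and 49.2%, 47.5%, 48.3% and 49.8% in iwatMSCs (-0.01, 95% interval -0.45 to 0.44). Hnrnpk, a poly(C)-binding protein, had 44.9 ± 7.95% in pMSCs and 47.5 ± 4.43% in iwatMSCs. Srsf11, an SR-related protein, had 46.0 ± 6.77% in pMSCs and 40.3 ± 5.70% in iwatMSCs. In these 3 genes intron-retaining forms held between 34.6% and 55.2% of the FPKM in every library.

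Srsf5 had 34.9 ± 8.94% in pMSCs and 32.2 ± 2.21% in iwatMSCs, Srsf1, the founding SR protein, 30.4 ± 9.12% in pMSCs and 34.4 ± 17.8% in iwatMSCs, and Hnrnph3 30.4 ± 7.68% in pMSCs and 31.9 ± 5.07% in iwatMSCs. The 2 members under an unadjusted p of 0.05 had small shares. Mbnl2 had 10.2%, 8.78%, 10.3% and 8.97% in pMSCs, against 6.38%, 7.70%, 6.82% and 6.98% in iwatMSCs (adjusted p = 0.39). Its main retained-intron form, Mbnl2-206, was at like levels in both (4.67, 4.06, 6.10 and 5.26 FPKM in pMSCs and 5.01, 5.02, 5.12 and 4.98 FPKM in iwatMSCs), while the gene level was lower in pMSCs. Hnrnpm had 2.50 ± 0.515% in pMSCs and 1.69 ± 0.227% in iwatMSCs (adjusted p = 0.47).

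**Figure D4:**
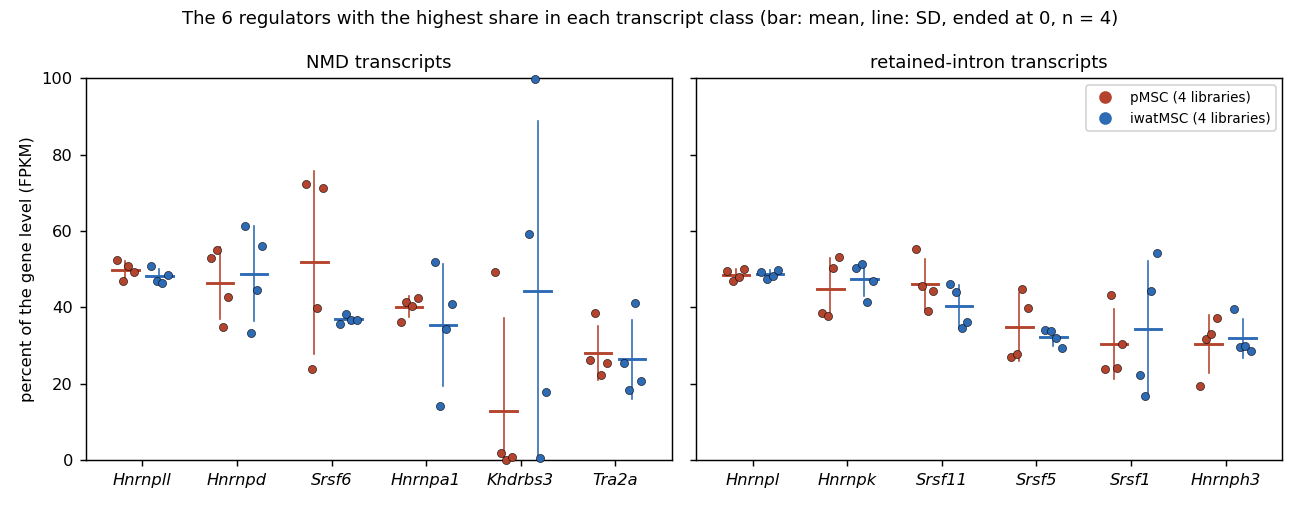
Percent of the gene level (FPKM) held by NMD transcripts (left) and by retained-intron transcripts (right) in the 6 regulators with the highest share of each, with points for libraries, bars for means and lines for the SD, which end at 0 (n = 4 per organ, pMSC left of iwatMSC). Hnrnpll stays between 46.5% and 52.4% and Hnrnpl between 46.9% and 50.1% in every library, Srsf6 spreads from 23.8% to 72.2% in pMSCs, and Khdrbs3 spans nearly the whole axis in iwatMSCs.

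Cassette exons were read from the same transcript FPKM: the inclusion of an exon is the FPKM of transcripts that contain it, as a percent of those plus the transcripts with the intron that skips it. Over 63 cassette exons in 30 members 0 were called (beside 7 of 3827 exons, 0.183%, with 0.0784% higher and 0.105% lower), with 6 at an unadjusted p under 0.05 (beside 223 of all 3827) and a smallest adjusted p of 0.69. The groups did not overlap for 8 of the 63, beside 4.02% of all exons tested. The Srsf3 poison exon was included in 4.32%, 5.58%, 6.79% and 5.13% in pMSCs and 5.13%, 8.62%, 4.90% and 10.5% in iwatMSCs. Only 5 of the 10 annotated Srsf3 transcripts were in the table. The Srsf6 poison exon was included in 75.02%, 26.4%, 45.2% and 76.2% in pMSCs, against 40.5%, 41.6%, 41.9% and 40.9% in iwatMSCs, with the same spread among pMSCs as its NMD share, which the same transcript sets. The Tra2a poison exon stood at 29.3 ± 7.52% in pMSCs and 27.5 ± 10.9% in iwatMSCs. Inclusion of the Tra2b poison exon was 6.72%, 6.86%, 21.5% and 6.87% in pMSCs and 8.05%, 6.72%, 37.8% and 7.39% in iwatMSCs, and thus low and even except in 1 library of each organ. In these 2 libraries, pMSC 3 and iwatMSC 3, the NMD form Tra2b-206 was at 8.97 and 17.4 FPKM, against 2.19 to 2.59 FPKM in the other 6, whereas the coding form Tra2b-204 stayed between 28.0 and 32.7 FPKM in all 8.

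The paired exons of sister genes gave these values. The Mbnl1 54-base exon was included in 46.8%, 60.0%, 42.8% and 48.9% in pMSCs and 50.9%, 51.8%, 41.1% and 41.6% in iwatMSCs, with overlap. The Mbnl2 54-base exon was included in 66.7%, 68.1%, 62.0% and 32.1% in pMSCs, against 73.5%, 76.6%, 75.7% and 74.0% in iwatMSCs. The groups did not overlap (log2 ratio difference -1.13, 95% interval -2.23 to -0.02), but the adjusted p was 0.82, and the lowest value, in pMSC 4, went with 21.8 FPKM of Mbnl2-210, a form without the exon that was listed at 0 in the other 7. Mbnl1 protein is known to repress this exon in its own transcript. The Ptbp1 34-base exon was included in 97.7 ± 1.76% in pMSCs and 98.3 ± 0.809% in iwatMSCs, and the Ptbp2 one, below the level filter for the test, in 94.0 ± 4.31% in pMSCs and 94.3 ± 3.08% in iwatMSCs. In mouse brain development, skipping of the Ptbp2 exon is known to be driven by Ptbp1. The in-frame 78-base exon of Ptbp1, which is known to change its strength as a repressor, was included in 15.8%, 91.6%, 20.6% and 19.9% in pMSCs and 20.7%, 19.2%, 20.99% and 18.4% in iwatMSCs. Only pMSC 2 departed, and there Ptbp1-202 was listed at 0 while it had 103.5 to 121.0 FPKM in the other 7 libraries.

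Of the 6 exons at an unadjusted p under 0.05, 3 were in Rbfox2. The muscle-type 43-base exon was included in 15.1%, 33.4%, 44.8% and 35.2% in pMSCs, against 17.2%, 15.4%, 11.7% and 11.02% in iwatMSCs (log2 ratio difference 1.18, 95% interval 0.27 to 2.09, adjusted p = 0.70). Thus 3 pMSC libraries lay above all iwatMSC libraries and pMSC 1 lay among them. The brain-type 40-base exon was included in 86.8 ± 4.57% in pMSCs and 81.1 ± 4.18% in iwatMSCs and overlapped. A 51-base exon nearer the start of the gene was included in 77.4 ± 1.89% in pMSCs and 87.1 ± 3.63% in iwatMSCs, and a 93-base exon in 95.04 ± 1.23% in pMSCs and 97.2 ± 0.150% in iwatMSCs, both without overlap and with an adjusted p of 0.69 to 0.70. The transcripts that set the 43-base value were low, 4.46 FPKM in sum on average, beside 23.3 FPKM for the whole gene. Forms with the 40-base exon were not counted as skipping the 43-base exon, so its percent is not a share of all Rbfox2 RNA. The 43-base and 40-base percentages have different including forms but share the skipping forms Rbfox2-201 and Rbfox2-202, and cannot be added. Rbfox2-207 enters both the 43-base and the 93-base value. Rbfox2-201 enters the 43-base and 40-base values as a skipping form and the 51-base and 93-base values as an including form. The Rbfox2 exon values are thus not separate readings. The muscle marker sum was higher in pMSCs, and its part in these values was not tested. The other exons at an unadjusted p under 0.05 were the Mbnl2 54-base exon and 1 exon each of Hnrnpc and Hnrnpu. In Hnrnpa2b1, the 36-base exon that marks the B1 protein was included in 4.74 ± 0.300% in pMSCs and 4.04 ± 0.141% in iwatMSCs.

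**Figure D5:**
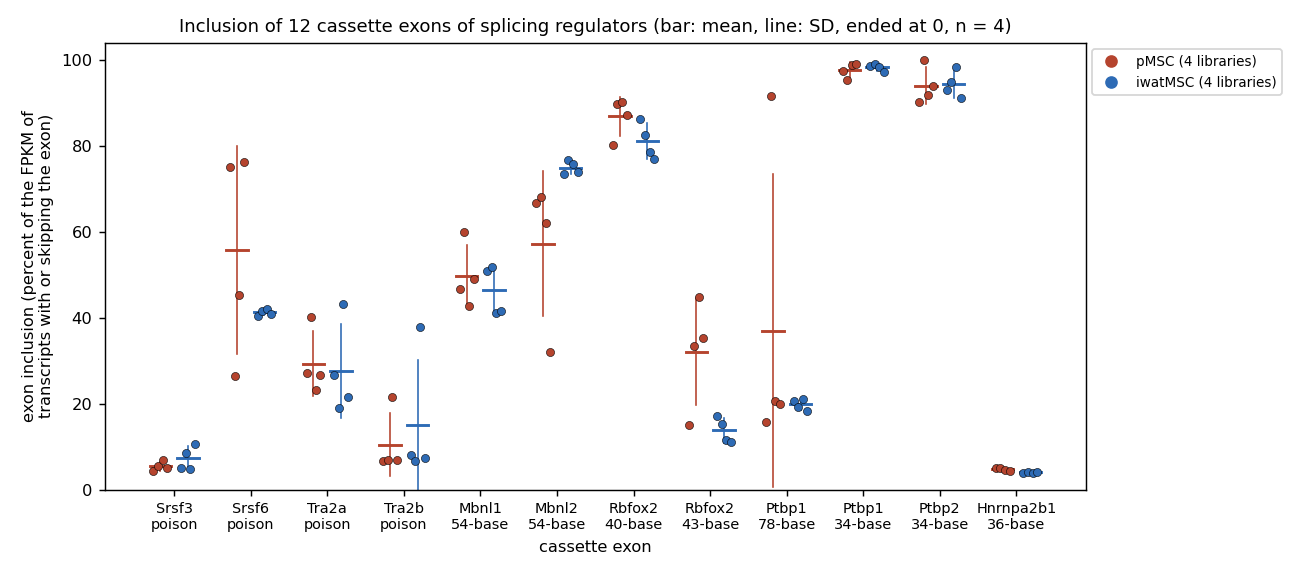
Inclusion in percent of 12 cassette exons of splicing regulators, with points for libraries, bars for means and lines for the SD, which end at 0 (n = 4 per organ, pMSC left of iwatMSC). Single libraries stand apart for Tra2b (pMSC 3, iwatMSC 3), Mbnl2 (pMSC 4) and the Ptbp1 78-base exon (pMSC 2). The Rbfox2 43-base exon is higher in 3 of 4 pMSC libraries, and its percent leaves out forms with the 40-base exon.

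Other genes of the splicing machinery were read from lists, with counts by the gene-level test (9.02% of all genes higher and 10.4% lower). Of 46 core spliceosome genes 0 were higher and 5 lower in pMSCs, with a median difference of -0.12, beside -0.03 over all genes. The count of 5 was 1 to 2 without pMSC 1, 3 or 4 or without iwatMSC 2 or 3. The largest were Sf3a2 (U2 snRNP, 35.3 ± 1.93 FPKM in pMSCs and 44.6 ± 2.96 FPKM in iwatMSCs, -0.33, adjusted p = 0.011), Snrpg (an Sm ring protein, -0.31, adjusted p = 0.043) and Dhx38 (a spliceosomal helicase, -0.31, adjusted p = 0.026). Of 8 tested SR protein kinases 1 was higher, Dyrk1a (14.3 ± 1.20 FPKM in pMSCs and 11.1 ± 1.28 FPKM in iwatMSCs, adjusted p = 0.034), and 0 were lower. Dyrk1a was not called without pMSC 1, 2 or 3 or without iwatMSC 2 or 3. Of 16 NMD factors 1 was higher, Smg6, the endonuclease that cuts NMD targets (10.96, 11.5, 16.2 and 14.2 FPKM in pMSCs, against 7.99, 8.69, 8.14 and 8.24 FPKM in iwatMSCs, 0.60, adjusted p = 0.0067), and 0 were lower. Of 49 tested further RNA-binding regulators 2 were higher and 2 lower. Among them Pcbp3, a poly(C)-binding protein, was higher (13.9 ± 1.90 FPKM in pMSCs and 6.82 ± 0.555 FPKM in iwatMSCs, 0.92, adjusted p = 0.00039), as was Rbms3 (0.70, adjusted p = 0.0018), a single-stranded nucleic acid-binding protein, and Rbm47, an epithelial and endodermal splicing factor, was lower (0.418 ± 0.125 FPKM in pMSCs and 1.59 ± 0.433 FPKM in iwatMSCs, -0.85, adjusted p = 0.0029).

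Genes whose exons are textbook targets of these regulators were read in the same way. Of 19 tested target genes 2 were higher and 2 lower in pMSCs. Tpm1, the tropomyosin with muscle and non-muscle exons, was at 236, 215, 363 and 186 FPKM in pMSCs, against 122, 91.5, 134 and 126 FPKM in iwatMSCs (1.04, adjusted p = 0.0065). Arhgap17 fell (-0.60, adjusted p = 0.0075), as did Bin1 (-0.50, adjusted p = 0.0030), a membrane-bending protein with a muscle-specific exon. Of their 87 tested transcripts 2 were higher and 1 lower, beside 5.54% of all transcripts called. Of their 39 tested cassette exons 0 were called, beside 0.183% of all exons, and 1 was at an unadjusted p under 0.05, beside 223 of all 3827 exons.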

How the data were processed

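RNA of 4 pMSC and 4 iwatMSC libraries was enriched for mRNA and sequenced in pairs. Per the study's methods the authors aligned reads with STAR to GRCm38.p6 and quantified Ensembl transcripts with StringTie, and they deposited FPKM values, not counts. StringTie divides reads among transcripts, and FPKM is per length, so transcript, share and exon values can move with that division, and sums per gene can too. Of 136535 transcripts 136372 matched GENCODE M21, and the rest held at most 0.0505% of a library's FPKM. From the deposited FPKM, gene sums, class shares and exon inclusion were computed (Python 3.11.15, pandas 2.3.3) and tested with limma 3.58.1 in R 4.3.3, two-sided, with a trended prior, on log2(FPKM + 1) or log2 ratios with 0.5 added, pMSC minus iwatMSC, called at an adjusted p under 0.05 over all features. Filters were a mean of 1 FPKM (levels) and 0.5 FPKM (class or exon forms). Tests were checked on simulated data. Pseudogene similarity came from blastn 2.17.0. Members and lists were chosen with earlier results of these data known, and exon inclusion was added after seeing the data. Named in full were the called members, the most abundant tested member of each family, the 6 highest NMD and the 6 highest retained-intron shares, called transcripts of at least 5 FPKM in the higher organ with leading forms, and up to 3 called genes a list. Alternatives were other pseudocounts, filters and scalings, an unequal-variance test, an arcsine scale and leaving out each library.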

Additional observations from a re-analysis of the deposited data

Results flagged for a closer look

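Of 76 groups of 4 libraries examined (named gene levels, transcripts, shares and exons), 9 held a library far from the other 3. Chance flags about 1 in 20 groups of unselected and independent values, but the exons were picked after their values had been seen and the Tra2b values share a transcript, so the 9 cannot be read against that rate. Hnrnpab stood at 460.3 FPKM in iwatMSC 2, against 367.9 to 373.5 FPKM in the other iwatMSCs. Tra2b stood at 44.8 FPKM in pMSC 3, against 36.7 to 37.4 FPKM in the other pMSCs, and at 48.9 FPKM in iwatMSC 3, against 33.98 to 36.4 FPKM in the other iwatMSCs. Inclusion of its poison exon was high in the same libraries, 21.5% in pMSC 3 (6.72% to 6.87% in the others) and 37.8% in iwatMSC 3 (6.72% to 8.05%). The NMD share of Khdrbs3 was 49.2% in pMSC 1 and 0.00774% to 1.87% in the other pMSCs. The retained-intron share of Hnrnph3 was 39.5% in iwatMSC 1 and 28.6% to 29.9% in the other iwatMSCs. The Ptbp1 78-base exon was included in 91.6% in pMSC 2 and in 15.8% to 20.6% in the other pMSCs. The Mbnl2 54-base exon was included in 32.1% in pMSC 4 and in 62.0% to 68.1% in the other pMSCs.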

How the results depend on the processing

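Of the 6 called members, Celf2 and Nova1 were called under every alternative run, and all 6 kept their direction in each. The number of called members (6) was 2 with the unequal-variance test and 3 to 6 with 1 library left out, and 4 without the level filter, where Rbfox1 entered. Over all genes the unequal-variance test called 1428 (2589 in the main test) and over all transcripts 761 (1367), and leaving out 1 library gave 1793 to 2840 genes, 864 to 1518 transcripts and 2 to 3 member transcripts. Over all genes NMD shares gave 2 calls with an NMD minimum of 2 FPKM, 2 with unequal variance and 1 to 7 with a library left out (5 in the main test). Retained-intron shares gave 21 with a pseudocount of 1, 65 with a minimum of 0.1 FPKM, 3 with 2 FPKM, 7 on the arcsine scale, 4 with unequal variance and 9 to 16 with a library left out (12 in the main test). Exon inclusion gave 8 to 14 with a library left out (7). No alternative called a member for any of these 3. With unequal variance core spliceosome calls were 3, target genes 2, proliferation genes 1 and SR kinases and NMD factors 0, and SR kinases were also 0 without the filter. With a library left out these lists gave 1 to 7, 3 to 4, 2 to 5, 0 to 1 and 1, and the further regulators 2 to 4. The gene-level sign turned with a library left out for 11 of the 45 tested members, none called. Among the members whose gene levels are given, those that turned ran over -0.16 to 0.021 for Mbnl3, -0.031 to 0.013 for Hnrnpa2b1, -0.019 to 0.028 for Hnrnpm, -0.0082 to 0.051 for Khdrbs1, -0.019 to 0.070 for Ptbp1 and -0.045 to 0.14 for Tra2b. Among the shares given, none called, those that turned ran for NMD over -0.44 to 0.10 for Hnrnpd, -0.13 to 0.78 for Hnrnpa1 and -0.067 to 0.49 for Tra2a, and for retained-intron shares over -0.034 to 0.027 for Hnrnpl, -0.063 to 0.32 for Srsf5, -0.57 to 0.22 for Srsf1 and -0.25 to 0.12 for Hnrnph3. The causes were not tested. No paired analysis was possible because the labels share no numbers between the organs and no source ties a pMSC library to an iwatMSC library. Depth in reads is unknown, so low values have no counting interval.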
